A study of Rattus norvegicus with 20 samples.

Results

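The regions described here are 247 CpG island regions of the rat genome that lay low on a scale of methyl-CpG enrichment in all 4 normal mammary glands and past the middle of that scale in 8 or more of 16 mammary carcinomas. They were chosen from 13650 regions on the array, of which 13132 lie on autosomes. A region was a run of at least 3 array probes starting no more than 500 bases apart. Each array was scaled so that the density peak of all its regions had a linear position of 0 and the density peak of its highest 15% of regions had a position of 1, on the unlogged ratio. A region was kept when it lay on an autosome, was under 0.2 in every normal gland and was over 0.5 in 8 or more carcinomas. In all, 10960 autosomal regions were under 0.2 in every normal gland, and the 247 regions were 2.25% of those and 1.88% of the autosomal regions. The choice used the measured ratios of all 20 samples, so differences between the groups at these regions are given as a description and support nothing by themselves.

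The samples were 4 normal mammary glands and 16 radiation-induced mammary carcinomas, and every animal was a female F1 rat with Sprague-Dawley and Copenhagen parents. The shared protocol covers both unirradiated rats and rats given whole-body caesium gamma rays at 4 Gy, at 0.5 Gy per minute, when 7 weeks old, and the labels do not say which of these the normal glands came from. Each two-colour array set tissue DNA captured by a methyl-CpG-binding domain (Cy5) against the untreated input of that tissue (Cy3), so a high Cy5 over Cy3 ratio marks methylated DNA. The label codes of carcinomas 7 and 8 did not match the codes on their scanner output, and each was used as deposited.

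CpG islands are stretches of DNA rich in the CG dinucleotide, and many of them lie at gene promoters. Most islands are unmethylated in normal tissue, and a subset gains cytosine methylation in cancers, where methylation of a promoter island often accompanies silencing of its gene. The methyl-CpG-binding domain holds DNA in proportion to its density of methylated CG, so the ratio measures enrichment and not a share of methylated molecules. In whole tissue, a larger share of cells with a methylated island cannot be told apart from denser methylation in each cell. The array files name no genes and use build rn4, so the regions are given by rn4 coordinates without gene names or sequences.

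The arrays differed in range, and the position scale carries that difference. The upper density peak lay at log2 ratios of 5.79, 3.90, 4.59 and 4.36 in normal glands 1 to 4, and between 1.97 and 3.59 in the carcinomas. A position of 0.2 therefore stood for log2 ratios of 3.54, 1.84, 2.44 and 2.24 in the normal glands, while a position of 0.5 stood for values from 1.23 to 2.66 in the carcinomas. A constant log2 ratio of 1.84, at the 0.2 limit in normal gland 2, would already count as over 0.5 in 7 of the 16 carcinomas. Of the probes in the chosen regions, 95.0% to 97.9% gave a Cy5 signal well above background in the normal glands and 90.5% to 99.1% did so in the carcinomas.

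In log2 ratio, the chosen regions were already enriched in the normal glands. The median of the 247 regions was 2.19, 1.45, 1.37 and 0.79 in normal glands 1 to 4. In the carcinomas this median ran from 1.18 in carcinoma 3 to 2.96 in carcinoma 8, with a middle value of 1.92. The groups overlapped, since normal gland 1 was above 11 of the carcinomas on this scale. In linear position the medians were 0.0718, 0.141, 0.0789 and 0.0493 in the normal glands and 0.211 to 0.875 in the carcinomas, with no overlap. The rule set the normal glands under 0.2 and asked for over 0.5 in 8 carcinomas, and the lowest carcinoma medians, in carcinomas 3 and 2, were 0.211 and 0.262. By rank among all regions of the same array, the median chosen region stood at the 79.3, 79.5, 79.1 and 74.4 percentile of the normal glands and at the 81.9 to 87.0 percentile of the carcinomas.

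**Figure D1:**
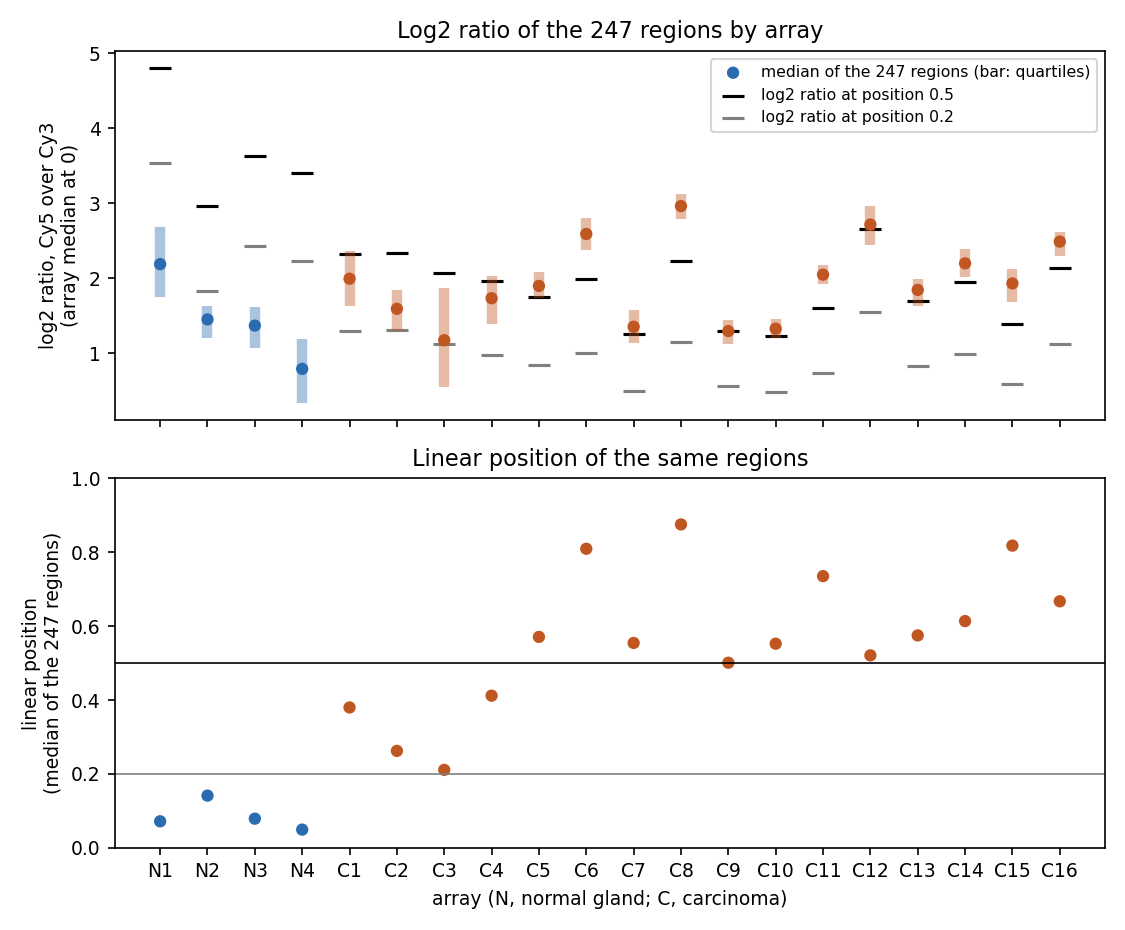
Upper panel, median log2 ratio of Cy5 over Cy3 of the 247 regions on each array, with bars for the quartiles and dashes for the log2 ratios at positions 0.2 (grey) and 0.5 (black). Lower panel, median linear position of the same regions, with lines at 0.2 and 0.5. The log2 medians overlap between the groups (0.79 to 2.19 in normal glands, 1.18 to 2.96 in carcinomas), while the positions do not.

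Region by region, the mean log2 ratio over normal glands had a median of 1.47 and ran from 0.034 to 2.27. The mean over carcinomas had a median of 1.93 and ran from 1.49 to 2.48. The difference, carcinoma minus normal, had a median of 0.45 and ran from -0.38 to 2.02. It was above 0 in 226 regions and below 0 in 21 regions, which lay lower in carcinomas by log2 ratio although they counted as gained by position. Without normal gland 4 the median was 0.26, with 182 regions above 0 and 65 below, and without normal gland 1 it was 0.69, with 243 above and 4 below. With loess within arrays, 244 regions were above 0 and 3 below, and within scan day 3 alone 190 were above and 57 below. Over the 10960 autosomal regions under 0.2 in every normal gland the median difference was 0.11, and over all 13650 regions it was 0.022. The spread between samples was larger than the typical difference: the SD of a chosen region had a median of 0.57 over the 4 normal glands and 0.61 over the 16 carcinomas.

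In rank, 245 of the 247 regions had a higher mean percentile in carcinomas and 2 had a lower one. The difference had a median of 6.34 percentile points and ran from -1.53 to 31.6. The difference lay mainly in the enriched channel, where the median difference was 0.36 in log2 signal, against 0.036 over the autosomal regions under 0.2 in every normal gland. In the input channel the median difference was -0.079 in log2 signal, against -0.065 over those regions.

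**Figure D2:**
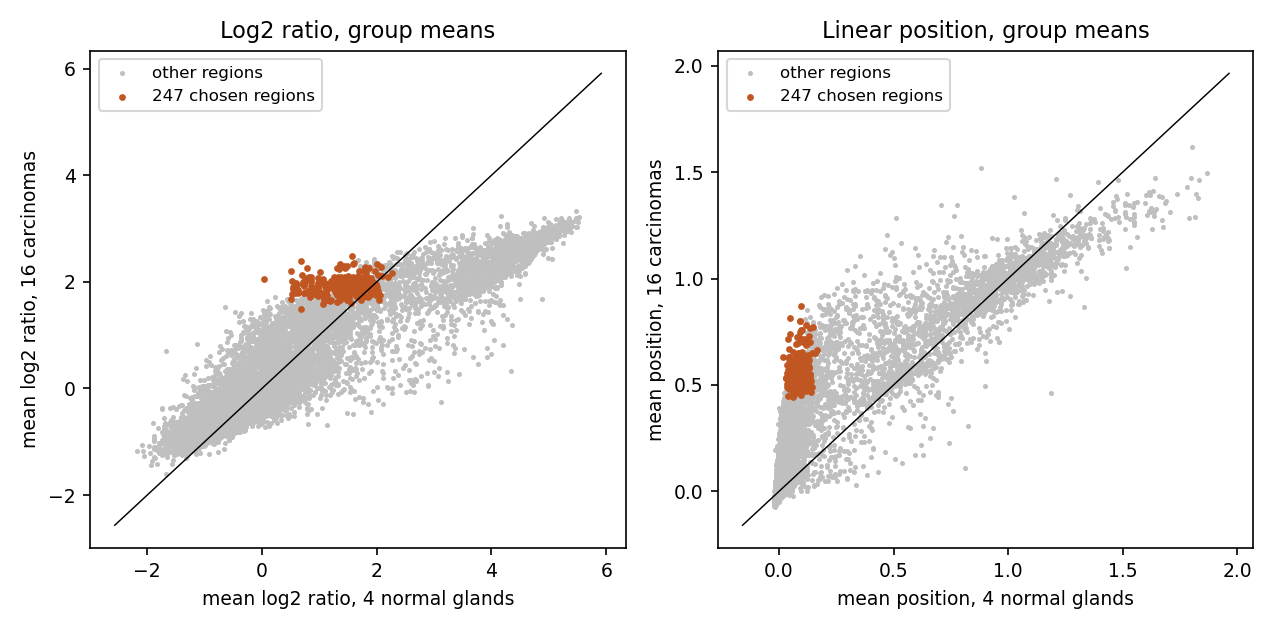
Each point is a region, with its mean over 4 normal glands on the horizontal axis and its mean over 16 carcinomas on the vertical axis, in log2 ratio (left) and linear position (right). The diagonal marks equal means. By log2 ratio 21 of the 247 chosen regions lie below the diagonal, and by position all of them lie above it.

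The overlap of the groups was counted on each scale. In log2 ratio, the 16 carcinomas all lay above the 4 normal glands at 18 of the 247 regions (7.29%), against 1.71% of all regions, and 8 or more did so at 81 (32.8%), against 29.0%. In 14 of the chosen regions no carcinoma was above every normal gland. Over the 10960 autosomal regions under 0.2 in every normal gland, these log2 shares were 2.09% for all 16 carcinomas and 35.7% for 8 or more. Over the 1169 of them that passed in 1 to 4 carcinomas they were 3.59% and 43.4%. For 8 or more carcinomas, both shares were above that of the chosen regions. In percentile, all 16 carcinomas were above every normal gland at 39 regions (15.8%), against 2.11% of all regions, and 8 or more were at 232 (93.9%), against 27.9%. In linear position this held at 143 regions (57.9%), against 9.14% of all regions, and 8 or more were above at all 247, against 51.9%. The rule used this contrast, so nothing is read from these counts.

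Across all 13650 regions, limma with Benjamini-Hochberg adjustment called 1531 regions higher in carcinomas, a share of 11.2%, and 3220 regions lower, a share of 23.6%, at an adjusted p under 0.05. Of the chosen regions 59 (23.9%) were called higher and 0 were called lower, while 85 (34.4%) had an unadjusted p under 0.05 in either direction, against 43.8% of all regions. Leaving out normal gland 4 moved the count of chosen regions called higher to 24 (9.72%), against 1100 of all regions (8.06%). Without normal gland 3 it was 38 (15.4%), against 949 of all regions (6.95%), and without normal gland 1 it was 80 (32.4%), against 852 (6.24%). Within the arrays of scan day 2 the chosen regions called higher were 90, out of 573 over all regions, and within those of scan day 3 they were 15, out of 284, with 2 normal glands in each.

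Other scalings changed these counts. With loess within arrays, 162 of the chosen regions were called higher, against 10.7% of all regions. Quantile normalization gave 128, against 8.61% of all regions, and normexp background correction gave 48, against 3.39%. No chosen region was called lower under loess, quantile normalization or normexp, against 7.71%, 12.1% and 21.3% of all regions. Of the chosen regions, 41 were called higher under all 4 of these scalings, counting median centring as 1, and 63 were called under none of them. Matching counts over all regions were not made, so nothing is read from these. Of the calls over all regions, 67.8% were lower with median centring, 41.8% with loess, 86.3% with normexp and 58.4% with quantile normalization.

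The choice of the regions itself depended on the scaling of the arrays. After loess within arrays, the same rule chose 44 regions, of which 7 were among the 247, and after quantile normalization it chose 6, all among the 247. Normal gland 2, which had the lowest upper peak of the normal glands, had the highest normal position at 225 of the 247 regions. Without it, the rule chose 377 regions, of which 247 (65.5%) were under 0.2 in it.

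The chosen regions lay mostly in the lower part of the possible range of 8 to 16 carcinomas. Of the chosen regions, 114 (46.2%) passed in 8 or 9 carcinomas, 69 in 12 or more and 5 in 15, and 0 passed in all 16. At 9235 of the 10960 regions under 0.2 in every normal gland (84.3%), no carcinoma passed. On either side of the limit, 60 regions passed in 8 carcinomas and 73 regions passed in 7, and both sets had a median log2 difference of 0.34. On either side of the other limit, 106 chosen regions had a highest normal position of 0.15 to 0.2 and a median log2 difference of 0.22. The 97 autosomal regions with a highest normal position of 0.2 to 0.25 and 8 or more carcinomas over 0.5 had a median log2 difference of -0.043.

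Chosen regions that passed in more carcinomas also had larger differences in log2 ratio. The median difference was 0.31 for the 114 regions that passed in 8 or 9 carcinomas, 0.50 for the 64 that passed in 10 or 11 and 0.61 for the 69 that passed in 12 to 15. The shares called higher by limma were 14.0%, 25% and 39.1% in the same order, against 11.2% of all regions. Both measures come from the contrast the rule used.

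The carcinomas differed widely in how many of the 247 regions passed. Carcinomas 1 to 4 had 69, 11, 48 and 79 regions over 0.5, which was between 4.45% and 32.0% of the regions. Carcinomas 5 to 10 had 185, 235, 156, 237, 125 and 177. Carcinomas 11 to 16 had 235, 136, 170, 199, 232 and 221. The rule asks for only 8 carcinomas, and carcinomas 1 to 4 contributed to it least often. In carcinoma 3, 116 of the regions were under 0.2, the limit set for the normal glands, and in carcinoma 2 it was 65.

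Choosing the regions with 1 carcinoma left out and then reading them in that carcinoma gave the same measure in a sample the choice had not used. Of the regions chosen without it, 4.45% passed in carcinoma 2, 18.1% in carcinoma 3, 24.6% in carcinoma 1 and 30.9% in carcinoma 4. In the other 12 carcinomas the share ran from 48.1% in carcinoma 9 to 94.7% in carcinoma 8. Of all autosomal regions under 0.2 in the normal glands, 0.109% to 10.7% passed in single carcinomas. Those regions started lower: the mean percentile over normal glands had a median of 40.2 for them and 78.1 for the 247 regions. The part of this starting level in the shares was not tested, so nothing is read from the gap between them.

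**Figure D3:**
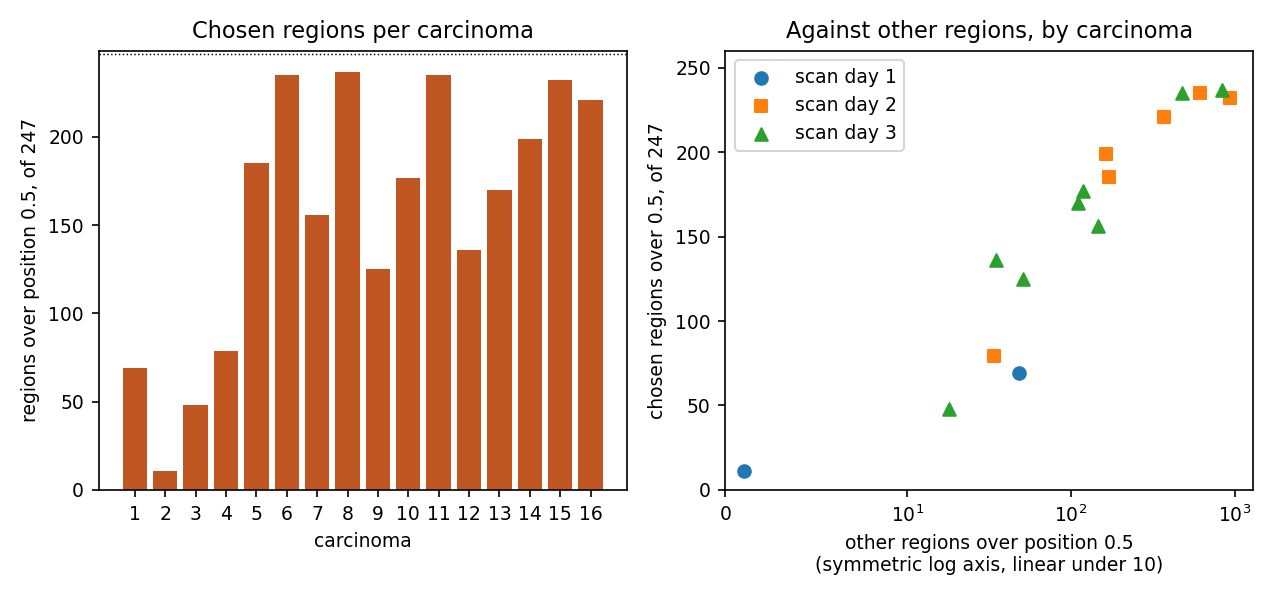
Left, the number of the 247 regions over position 0.5 in each carcinoma, with a dotted line at 247. Right, the same number against the number of other autosomal regions that were under 0.2 in every normal gland and over 0.5 in that carcinoma, on a symmetric log axis, with symbols for the scan day. Carcinoma 2 is lowest on both axes, with 11 chosen and 1 other region, and carcinomas 8 and 15 have the most other regions, 836 and 940.

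Carcinomas with many of the chosen regions over 0.5 also had many other regions over 0.5. Over the 16 carcinomas, Pearson's r was 0.754 and Spearman's rho was 0.955. Both counts use the limit of 0.5 on the position scale of the same array, and that limit also chose the regions, so r and rho are given as a description with no p. Without carcinomas 8 and 15, the 2 farthest from the median number of other regions, r was 0.796. Within scan days, r was 0.714 over 6 carcinomas of day 2 and 0.789 over 8 carcinomas of day 3.

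Of the other 3 relations over the 16 carcinomas, those with raw input signal and input unevenness did not pass the test. P-values were adjusted over 4 relations. The number of chosen regions over 0.5 had an r of -0.156 and a rho of -0.0397 with the range of the array. Position is scaled by that range, so this relation is a property of the scale and is given with no p. With the median raw input signal r was 0.277 and rho was 0.249 (permutation adjusted p = 0.593 and 0.467). With the unevenness of the input signal between chromosomes r was 0.119 and rho was 0.265 (permutation adjusted p = 0.666 and 0.467). That last r was 0.559 without carcinomas 3 and 8, the 2 farthest from the median unevenness (permutation p = 0.0368). Within days it was 0.733 over 6 carcinomas of day 2 and -0.461 over 8 carcinomas of day 3 (exact permutation p = 0.0583 and 0.243).

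Scan day, which the rule did not use, was compared among carcinomas. The 6 carcinomas scanned on day 2 had 192 ± 58.6 chosen regions over 0.5 (SD) and the 8 scanned on day 3 had 160.5 ± 61.3 (SD). The difference, day 3 minus day 2, was -31.3 regions and smaller than the spread within a day (p = 0.359, exact permutation over all 3003 splits, two-sided). In limma on linear position over all regions, 0 regions (0.0%) were called in either direction between the days, 325 (2.38%) had an unadjusted p under 0.05, and 3 of these were chosen regions (1.21%). Day 1 held 2 carcinomas and no normal gland, so it gave no comparison between the groups, and it was left out of these tests. Its arrays were carcinomas 1 and 2, with 69 and 11 chosen regions over 0.5. In them 70.0% and 73.8% of all probes had a Cy5 signal well above background. Whether these low counts go with day 1 was not tested.

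The 5 regions that passed in 15 carcinomas, the most of any, were the most widely shared. A region of 3 probes at chr1:191121021-191121251 passed in all carcinomas but carcinoma 2. Its log2 ratios were 0.33, 1.28, 0.82 and 0.28 in normal glands 1 to 4, and the carcinomas ran from 1.55 to 3.44 with a median of 2.35. All 16 carcinomas were above every normal gland, and the mean was 0.68 ± 0.47 (SD, n = 4) in normal tissue against 2.39 ± 0.60 (SD, n = 16) in carcinomas, which is 1.71 higher.

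At chr20:29547177-29547684, with 4 probes, the normal glands had log2 ratios of 2.60, 1.52, 1.49 and 0.65 and the carcinomas ran from 1.48 to 3.58 with a median of 2.40. Only carcinoma 4 stayed under 0.5 in position. The mean was 1.57 ± 0.80 (SD, n = 4) in normal glands against 2.48 ± 0.59 (SD, n = 16) in the carcinomas, but 5 carcinomas were above every normal gland because normal gland 1 was high. The region at chr8:112798634-112799258, with 8 probes, had the same order of the normal glands, at 2.72, 1.52, 1.48 and 0.71, against carcinomas from 1.50 to 3.02 with a median of 2.50. Carcinoma 5 was the exception there by position, and again 5 carcinomas were above every normal gland in log2 ratio.

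The 6 probes of chr14:43676235-43676632 gave 2.44, 1.74, 1.40 and 0.74 in the normal glands and 1.57 to 3.47 in the carcinomas, with a median of 2.21. At chr4:80475428-80476257, with 5 probes, the normal glands gave 2.21, 1.70, 1.26 and 0.59 and the carcinomas 1.42 to 3.28 with a median of 2.23. Carcinoma 2 was the only carcinoma not over 0.5 at either region. Normal gland 1 had the highest and normal gland 4 the lowest normal value at both, as it did at 220 and 211 of the 247 regions.

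Of the regions that passed in 14 carcinomas, the 3 with the highest median position over carcinomas differed in how far the groups overlapped in log2 ratio. At chr17:68704960-68705502, with 3 probes, the normal glands had 1.59, 1.78, 1.53 and 0.51 and the carcinomas 1.59 to 3.44 with a median of 2.41, and 13 carcinomas were above every normal gland. At chr4:80545812-80546948, with 12 probes, the normal glands had 2.32, 1.48, 1.38 and 0.0091 and the carcinomas 1.38 to 3.32 with a median of 2.19, and 7 carcinomas were above every normal gland. At chr5:171843265-171844116, with 8 probes, normal gland 1 stood at 3.40, and the others at 1.57, 1.90 and 1.16. The carcinomas there ran from 1.46 to 3.51 with a median of 2.30, and only 1 of them exceeded normal gland 1. The mean difference was 0.34 with median centring and 0.72 with loess.

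**Figure D4:**
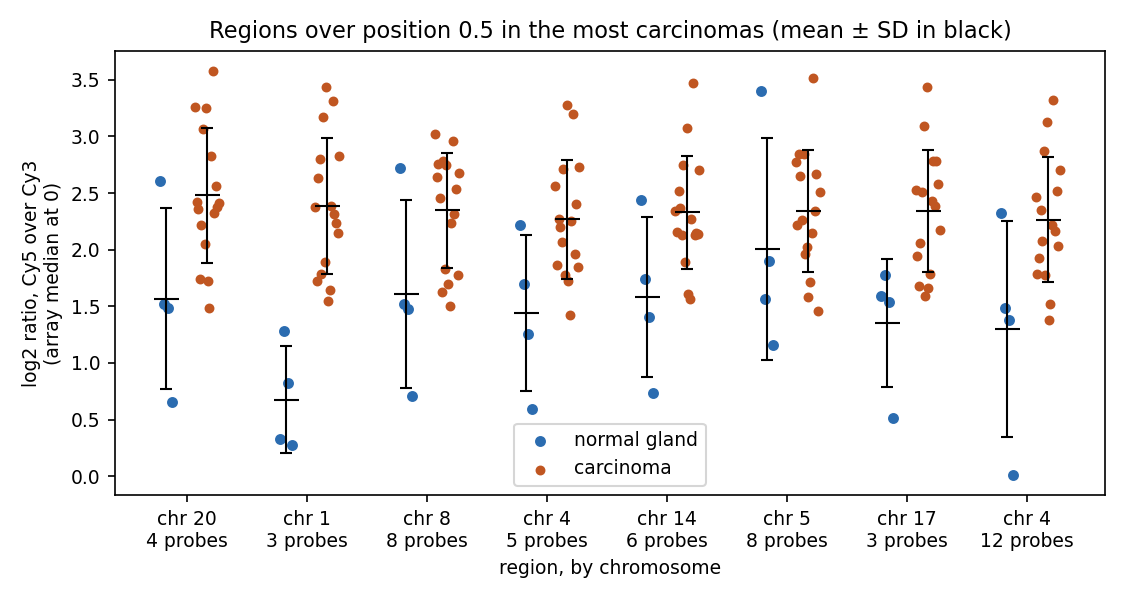
Log2 ratio of Cy5 over Cy3 at the 8 regions over position 0.5 in the most carcinomas, with 1 point per sample and the mean and SD in black, for 4 normal glands (blue) and 16 carcinomas (orange). The chromosome 1 region has all carcinomas, from 1.55 up, above the normal glands, which reach 1.28, and at the others normal and carcinoma values overlap.

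High position in carcinomas also marked chr1:220326631-220327044, with 7 probes, which passed in 12 carcinomas and in none of carcinomas 1 to 4. Its normal values were 2.48, 1.55, 1.55 and 0.33, and its carcinoma values ran from 0.98 to 3.34 with a median of 2.30. The mean difference of 0.83 was close to the SDs of 0.88 among normal glands and 0.67 among carcinomas.

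The largest differences in log2 ratio among the chosen regions were at regions with little enrichment in the normal glands. At chr10:18097053-18097347, with 4 probes, the normal glands had log2 ratios of -0.47, 0.54, 0.22 and -0.15, near the median of the array. The carcinomas there ran from 0.83 to 3.10 with a median of 1.97, and every one was above every normal gland. The mean was 0.034 ± 0.44 (SD, n = 4) in normal glands against 2.06 ± 0.66 (SD, n = 16) in the carcinomas, which is 2.02 higher. With loess the difference was 0.996, and with quantile normalization it was 2.20.

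The next largest were the chromosome 1 region that passed in 15 carcinomas and chr15:24627324-24627714, which had 5 probes and passed in 13 carcinomas. The normal glands had 0.20, 1.13, 0.50 and 0.23 there, and the carcinomas ran from 1.44 to 3.21 with a median of 2.12. All 16 carcinomas were above every normal gland, and the mean difference was 1.70.

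At the other end, 21 chosen regions counted as gained by position while their mean log2 ratio was lower in the carcinomas. The 3 with the lowest differences are given here. At chr10:106578451-106578860, with 5 probes, the normal glands had 2.72, 1.60, 1.82 and 2.03 and the carcinomas ran from 0.18 to 2.69 with a median of 1.69. The mean difference was -0.38, 0 carcinomas were above every normal gland, and 8 of them were over 0.5 in position. The pattern was alike at chr8:69408716-69409657, with 8 probes, where the normal glands had 2.72, 1.66, 1.97 and 1.91 and the carcinoma median was 1.81, a mean difference of -0.31. At chr1:203837311-203838409, with 12 probes, the normal glands had 3.09, 1.66, 1.83 and 1.53 and the carcinoma median was 1.73, a mean difference of -0.27. With loess these differences were 0.094, 0.16 and 0.15 in the same order, all above 0. With normexp they were -0.19, -0.16 and -0.058, and with quantile normalization -0.10, -0.0037 and 0.088, so the direction turned at all 3 with loess, at 1 with quantile normalization and at none with normexp.

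Among the regions with the most probes, which average over the most measurements, the differences were uneven. At chr8:74201180-74203328, with 19 probes, the normal glands had 1.21, 0.65, 0.51 and 0.11 and the carcinomas ran from 0.40 to 3.17 with a median of 1.83. Of the carcinomas, 14 were above every normal gland, and the mean difference was 1.17. At chr5:143982312-143984005, with 17 probes, the normal glands had 1.42, 0.82, 0.86 and 0.22, the carcinomas ran from 0.19 to 2.92 with a median of 1.71, and the mean difference was 0.89. Carcinoma 3 was the lowest at both regions, and 12 carcinomas were above every normal gland at the second.

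The remaining large regions differed less between the groups. At chr10:18099723-18102421, with 20 probes over 2699 bases, the normal glands had 2.00, 1.04, 1.02 and 0.44 and the carcinoma median was 1.65, a mean difference of 0.53. The difference was 0.24 at chr3:162920185-162921935, with 19 probes, and 0.080 at chr3:52694732-52697101, with 17 probes. At the last of these the normal glands had 2.68, 1.59, 1.76 and 1.33 and the carcinomas ran from 0.99 to 3.06 with a median of 2.01, so the groups overlapped over most of their range.

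The probes of the chosen regions were also read singly. Of 1703 probes in the chosen regions, 1402 (82.3%) had a higher mean log2 ratio in carcinomas than in normal glands. In 119 regions every probe did. The share over all probes of the array was not counted. By region, the difference was above 0 at 226 of the 247 chosen regions. It was above 0 at 6973 of the 10960 autosomal regions under 0.2 in every normal gland. Where a region passed 0.5 in a carcinoma, a median of 82.1% of its probes were over 0.5 there. Of the 135 regions with 6 or more probes, 110 met the rule on their odd probes alone, 118 on their even probes alone, 96 on each set and 3 on neither. Both sets of probes hold values that chose the regions, so these counts are a description and support nothing by themselves. Neighbouring probes can also read the same DNA fragments and are not independent.

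In most of the chosen regions the inner probes read higher than the outer ones, in both groups. The mean log2 ratio of the inner probes was above that of the outer probes in 181 of the 247 regions in carcinomas and in 171 in normal glands. Matching counts over all regions were not made, so this is not read as a trait of the chosen regions. The median difference between the groups was 0.42 at inner probes and 0.54 at outer probes. In size the regions were close to the rest, with a median of 6 probes and 600 bases, against 6 probes and 616 bases for all autosomal regions under 0.2 in every normal gland.

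The chosen regions were spread over all 20 autosomes. Chromosome 1 held 35, the largest number, and chromosomes 12 and 13 held 3 each. As a share of the regions under 0.2 in every normal gland, chromosome 12 was lowest at 0.809% and chromosome 15 was highest at 3.13%. Of 512 windows of 5 megabases with an autosomal region, 148 held a chosen region, and 92 of these held 1.

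Chosen regions often lay near each other. Another chosen region lay within 10 kilobases of 54 of them (21.9%), against 129 (1.20%) of the other autosomal regions under 0.2 in every normal gland. Within 100 kilobases the shares were 32.0% and 4.41%, and within 1000 kilobases they were 44.5% and 25.4%. Whether this exceeds what the spacing of islands on the array would give was not tested.

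Neighbours that were not chosen were often high in some carcinomas as well. A neighbour here was the nearest run of probes on each side within 5 kilobases, of any size, so runs under 3 probes could count. Chosen regions had 133 neighbours that were not chosen, of which 95 were under 0.2 in every normal gland. Of these 95, 71 (74.7%) were over 0.5 in at least 1 carcinoma. In 41 of the 95 (43.2%) at least 4 carcinomas were over 0.5. Around the 1169 regions that passed in 1 to 4 carcinomas, the corresponding shares were 64.1% and 25.1% of 415 neighbours. Around all regions under 0.2 in every normal gland they were 19.8% and 7.55% of 2889 neighbours. The neighbours also differed in normal glands, with a median log2 ratio of 0.81 around the chosen regions. It was 0.56 around regions that passed in 1 to 4 carcinomas and -0.15 around all regions under 0.2. The part of this starting level in the shares was not tested.

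The run with the most chosen regions lay on chromosome 4, at chr4:80475428-80560446, where 10 of 16 regions within 85019 bases were chosen. These 10 regions held 80 probes. Their mean log2 ratio had a median of 1.43 in normal glands and 2.05 in carcinomas, and the differences ran from 0.11 to 1.36. The number of carcinomas over 0.5 was 8 to 15 per region. All 10 regions were over 0.5 in carcinomas 6, 8, 11, 15 and 16, while carcinomas 1 to 4 had 4, 0, 1 and 3 of them.

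Within this run the clearest separation in log2 ratio was at chr4:80530727-80531239, with 6 probes. The normal glands had 0.89, 0.63, 0.22 and 0.42, the carcinomas ran from 1.03 to 2.84 with a median of 1.94, and all 16 were above every normal gland. It passed 0.5 in only 8 carcinomas. At chr4:80525137-80526583, with 11 probes, the normal glands had 2.13, 1.01, 0.77 and -0.027 and the carcinomas ran from 1.31 to 3.09 with a median of 2.00, a mean difference of 1.09.

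The other named regions of the run had smaller differences against a wide spread of normal glands. At chr4:80516816-80517807, with 9 probes, the normal glands ran from 0.18 to 2.58 and the mean difference was 0.73. It was 0.59 at chr4:80540549-80540933, with 5 probes and normal values from 1.07 to 2.02. At chr4:80534049-80535406, with 11 probes, it was 0.39, with normal values from 1.10 to 2.88 and 14 carcinomas over 0.5. At chr4:80490867-80491994, with 8 probes, it was 0.26, with normal values from 0.87 to 2.99 and 9 carcinomas over 0.5. Normal gland 1 was the highest normal gland and normal gland 4 the lowest at all of these but the chr4:80540549-80540933 region, where normal glands 3 and 4 were both at 1.07.

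The regions of the run that were not chosen differed from one another. At chr4:80477051-80477751 and chr4:80503631-80504861 the mean normal positions were 0.327 and 0.361, and the mean log2 ratio fell by 1.47 and 1.72 in carcinomas (limma adjusted p = 0.00122 and 0.00654). Their mean positions in carcinomas were 0.441 and 0.438, above those of the normal glands, with 7 and 6 carcinomas over 0.5. At chr4:80508669-80509079 and chr4:80532639-80533096 the mean log2 ratio rose by 1.04 and 0.97 (limma adjusted p = 0.0208 and 0.0380), but only 2 and 3 carcinomas were over 0.5. At chr4:80521292-80522010 0 carcinomas were over 0.5. At chr4:80549563-80549870 the highest normal position was 0.226 and 2 carcinomas were over 0.5. The mean log2 difference there was -0.62 (limma adjusted p = 0.222), and the mean position was 0.115 in normal glands and 0.276 in carcinomas.

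**Figure D5:**
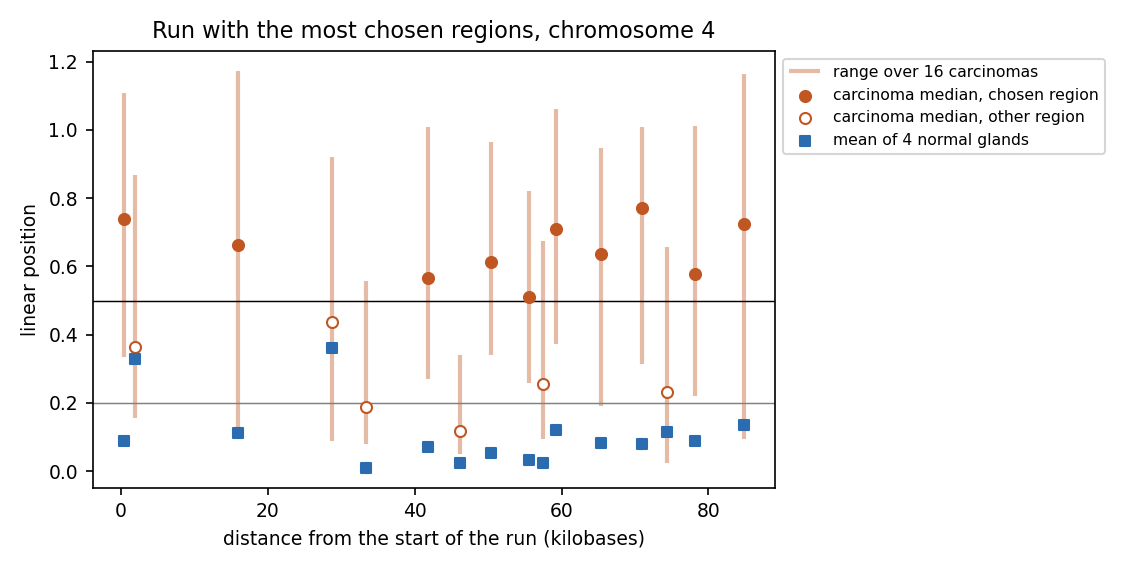
Linear position of the 16 regions of the chromosome 4 run against distance from its start in kilobases. Squares are means of 4 normal glands, circles are carcinoma medians (filled for the 10 chosen regions) and bars span the 16 carcinomas. The chosen regions have carcinoma medians over 0.5 and normal means under 0.2, and carcinoma bars reach down to the range of the normal glands at some of them.

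Runs with fewer chosen regions lay on other chromosomes. At chr6:9002627-9103131, 6 of 9 regions were chosen, with mean log2 differences from -0.047 to 1.33. The largest of these was at chr6:9102570-9103131, at 0.75 in normal glands and 2.08 in carcinomas. At chr20:2705037-2745442, 5 of 8 regions were chosen, with differences from 0.10 to 0.98, and at chr15:107543251-107624461, 4 of 6 were chosen, with differences from 0.29 to 0.60. At chr10:18097053-18103785 all 3 regions were chosen, and their differences ran from 0.36 to 2.02.

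The input channel was compared at the chosen regions, since a copy number change moves it. Input was lower than the mean of the normal glands by more than 0.25 in log2 in 22.3% of the 3952 pairs of a chosen region and a carcinoma, against 20.5% of pairs over all autosomal regions under 0.2 in every normal gland. The share was 19.7% where the chosen region was over 0.5 in that carcinoma and 26.8% where it was not. The part of copy number in the ratios was not tested.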

How the data were processed

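DNA of 4 normal glands and 16 carcinomas was measured on 20 two-colour arrays, 1 per sample, grouped by their titles. Scanning output came from Agilent Feature Extraction 10.7.3.1, with probes placed on build rn4, per the file headers. The intensities used, the deposited processed signals, had their background subtracted and each dye scaled by 1 linear factor, and the lowess factor was 0. A log10 of the Cy5 to Cy3 ratio stands beside them in the deposited files. The deposited value sheet of the authors holds the same ratios as log2, with column medians from -0.48 to -0.08, and served as an alternative. Its direction is that of Cy5 over Cy3, it was not centred, and the other steps behind it are not given in the sources used here.

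Here the log2 of processed Cy5 over processed Cy3 was taken for 93024 probes after 1565 control spots were left out. The 187 flagged values were set to missing, and the median of the array was then subtracted, which hides any shift common to the whole array. The dim filter kept 91599 probes and was an alternative. Background and outlier flags of the deposited files, which the scanner software set to 0 or 1, were read with no other change. Density peaks were found on the log2 scale. The groups were set against each other in R 4.3.3 by limma 3.58.1 (Benjamini-Hochberg over all regions). Counts by scan day and relations within days were tested with exact permutations, and the other relations over carcinomas with 100000 random permutations. The remaining tools were version 1.17.8 of the data.table package, matplotlib 3.10.9, scipy 1.17.1, pandas 2.3.3, numpy 2.4.6 and Python 3.11.15. The fit was tested on simulated data.

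The regions, the limits and the tests were chosen with earlier results of these data known. The regions named were the 8 with the most carcinomas over 0.5, the 5 with the highest median position over carcinomas, the 5 with the most probes, the 3 with the largest and the 3 with the lowest log2 difference, and up to 8 of the 5 megabase window with the most chosen regions. The runs with fewer regions, the chromosome 6 region and the regions of the chromosome 4 run that were not chosen were named after their values were seen. Lists of genes were not used, since no gene names of build rn4 were used here. Since the labels give numbers but no animals, p-values rest on the spread between these samples, which may be technical. Normal glands and carcinomas share the numbers 1 to 4. The correlations of their deviations from the group means were 0.33, -0.29, 0.11 and -0.04. The arrays differed in range and each number gives 1 correlation, so these cannot settle whether equal numbers mark a pair. The main fit did not pair the samples. The 20 arrays lay on 10 slides, 0 of which held both groups, and on 3 scan days. The number of arrays limits the precision. Alternatives were other scalings, filters, region sizes, limits and samples left out.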

Additional observations from a re-analysis of the deposited data

Results flagged for a closer look

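Of 61 values compared over the 4 normal glands, 3 had a gland far from the others, where chance gives about 5%. The lower density peak of normal gland 1 lay at a log2 ratio of -0.68, against -0.44 to -0.40 in the others. The median percentile of the 247 regions was 74.4 in normal gland 4, against 79.1 to 79.5 in the others. The position of chr4:80540549-80540933 was 0.145 in normal gland 2, against 0.0583 to 0.0681 in the others. What sets these glands apart was not tested.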

How the results depend on the processing

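The number of chosen member regions moved with the scaling and the limits: it was 44 with loess (7 shared), 424 with normexp (221 shared), 6 with quantile normalization (6 shared, an alternative chosen after seeing the data), 43 at a normal limit of 0.1, 412 at 0.3, 486 at a carcinoma limit of 0.4 and 95 at 0.6. Leaving out 1 sample gave 189 to 377, and the other settings gave 165 (without carcinomas 7 and 8) to 271 (at least 2 probes). Over all regions, calls higher in carcinomas were 463 with normexp, 573 within scan day 2, 284 within scan day 3 and 852 to 2114 with 1 sample left out. Calls lower were 1053 with loess and 1651 with quantile normalization, and 2829 to 3348 with 1 sample left out. Among the chosen regions, calls higher were 162 with loess, 128 with quantile normalization, 90 within day 2, 15 within day 3, 27 with the replicate number as a block and 24 to 80 with 1 sample left out. With that block 2 were called lower, 150 of their log2 differences were above 0 and 97 below, and over all regions 1063 were called higher and 2687 lower. The r with input unevenness was 0.559 without the 2 farthest carcinomas and -0.0287 at a limit of 0.4. The difference between scan days ran from -53.9 to -15.3 with 1 carcinoma left out. Calls between scan days stayed at 0 under the alternatives run.

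The log2 differences of 25 named regions gave 775 values under alternatives, of which 687 kept their direction and side of the threshold and 16 reversed. Those at chr1:203837311-203838409 were 0.15 with loess, 0.088 with quantile normalization and 0.16 within day 2, and ran from -0.44 to 0.085 with 1 sample left out, the highest without normal gland 1. Those at chr10:106578451-106578860 were 0.094 with loess and 0.045 within day 2, and that at chr8:69408716-69409657 was 0.16 with loess. At chr3:52694732-52697101 they were -0.17 within day 3 and -0.30 with the replicate block, and ran from -0.091 without normal gland 4 to 0.36 without normal gland 1, with -0.0029 without normal gland 2. At chr4:80490867-80491994 they were -0.032 within day 3 and -0.092 with the block, and ran from -0.038 without normal gland 4 to 0.67 without normal gland 1. With the block, those at chr10:18099723-18102421 and chr3:162920185-162921935 were -0.070 and -0.23. The causes were not tested.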
